A study of Mus musculus with 8 samples.

Results

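Neutrophil granulocytes of the mouse lung were the cells that the authors' deposited cell table names NG. There were 1411 of them among 40074 cells, after 1025 multiplets and 7 cells labelled by cell cycle were set aside, and all 1411 lay in the authors' cluster 10. The data are single-cell RNA profiles of right-lung cells from 8 mice on the C57BL/6 strain. In every mouse, in both groups, Sftpc-CreERT2 (a Cre recombinase switched on by tamoxifen, driven by the promoter of the surfactant gene Sftpc in alveolar type 2 cells) was combined with the mTmG reporter, and all had received tamoxifen as young adults. After recombination the reporter changes from tdTomato to eGFP, and neutrophils lie outside the Sftpc lineage. Littermates were then exposed for 10 months either to cigarette smoke (CS, n = 4) or to room air (RA, n = 4). Mice are numbered 1 to 4 within each group in the order of their records, and the mouse was the replicate in every test. CD45-positive cells were separated with magnetic beads and added back to the CD45-negative cells at a set ratio, so that the share of immune cells in a library was set in part by hand.

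Neutrophils are short-lived phagocytes made in the bone marrow and are among the first cells to enter an inflamed lung. They acquire granules in stages during maturation (primary granules with myeloperoxidase and elastase, then secondary granules with lactoferrin and lipocalin 2, then tertiary granules with gelatinase), so that granule transcripts are highest in immature cells and mature cells carry the proteins with little of the message. Once in tissue they respond to microbial products and cytokines through pattern receptors and NF-kB (a transcription factor held back by the inhibitor that Nfkbia encodes), and release chemokines that draw in more neutrophils. Cigarette smoke is a known cause of neutrophil accumulation in the airways.

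The marker genes fitted the label. Levels are transcripts per 10000 of a cell, averaged over all neutrophils of each mouse. S100a9, a subunit of the calcium-binding protein calprotectin, had a mean level of 455 ± 54.3 in neutrophils (SD, n = 8 mice), and the highest level in any other cell type was 3.10. S100a8, its partner subunit, stood at 288 ± 36.9 against 2.62 in the next type, and Retnlg, a resistin-like secreted protein of granulocytes, at 74.2 ± 37.5 against 0.354. Since the authors named the cells from clusters of the same data, these levels are a description.

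All 3 markers were found (above 0.5 transcripts) in 1242 neutrophils (88.0%). They were found together in 57 other cells (0.147%), of which 31 came from RA mouse 1, and in 256 of the 1025 multiplets. Besides these 3, the genes most specific to neutrophils included Slc7a11, the cystine transporter (53.5 ± 9.79, 18.5 times the next type), Rdh12, a retinol dehydrogenase (6.01 ± 1.16, 15.1 times), and Mmp9, the gelatinase of tertiary granules (10.97 ± 1.73, 12.9 times). G0s2, an inhibitor of triglyceride breakdown, followed at 90.4 ± 21.1 and 11.8 times the next type. Csf3r, the receptor for granulocyte colony-stimulating factor, reached 17.6 ± 2.05 and 9.03 times that of classical monocytes. Cxcr2, the receptor for the neutrophil-attracting chemokines, was lower at 5.73 ± 0.836, and Ly6g, the usual surface marker of mouse neutrophils, was at 0.889 ± 0.425 and found in 15.5% of the cells.

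Of the 16 neutrophil markers listed, Hdc and Lcn2 were as high or higher elsewhere. Hdc, which makes histamine, had a level of 87.5 in the cells labelled Mast against 36.3 ± 2.79 in neutrophils. Lcn2, lipocalin 2, had a level of 18.4 in alveolar type 2 cells against 15.9 ± 16.2 in neutrophils.

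Markers of several other cell types were near zero in neutrophils, and others were not. The summed level of 6 T-cell markers ran from 0.0489 to 0.145 in CS and from 0.0338 to 0.180 in RA, with all 6 under 0.1 as a mean over mice, and that of 6 eosinophil markers from 0.0583 to 0.278 in CS and from 0.135 to 0.238 in RA. Of 6 classical monocyte markers 4 were under 0.1 as a mean over mice, and their sum stayed between 0.332 and 2.39 in 7 mice but was 90.5 in RA mouse 1, almost all of it Chil3. The 6 non-classical monocyte markers summed to between 9.63 and 12.6 in CS and between 6.65 and 9.92 in RA, most of it Treml4 and Nr4a1. The 5 erythrocyte markers summed to 35.6, 32.7, 9.53 and 1.99 in the CS mice against 0.247 to 1.91 in the RA mice. Alveolar type 2 cell markers summed to between 0.654 and 12.7 in CS and between 1.79 and 5.28 in RA.

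Neutrophils numbered 172, 114, 148 and 193 in CS mice 1 to 4, and 373, 173, 126 and 112 in RA mice 1 to 4. Of the immune cells of each mouse they made up 16.6%, 8.96%, 8.98% and 15.9% in CS and 46.3%, 15.9%, 12.2% and 11.8% in RA. RA mouse 1 stood far above all others, while the other 3 RA mice lay within the range of the CS mice.

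The mean share was 12.6% ± 4.21 in CS and 21.5% ± 16.6 in RA (SD, n = 4 each), a difference smaller than the spread (two-sided exact permutation test over 70 assignments, p = 0.457). Without RA mouse 1 the difference shrank from -8.90 to -0.652 percentage points (exact p = 0.943). As a share of all cells, neutrophils were 3.30% ± 1.37 in CS and 3.94% ± 1.49 in RA (n = 4 each, exact permutation p = 0.571). RA mouse 1 held 373 neutrophils but only 433 other immune cells, against 841 to 1500 in the other mice, with the fewest B cells (94), T cells (74) and cells labelled Mast (6) of any mouse. Its alveolar macrophages numbered 112, against 31 to 53 in the others, and its 85 classical monocytes were within the range of the others, 51 to 129. Its share of 46.3% has a 95% Wilson interval of 42.9% to 49.7%, which covers counting error only.

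**Figure D1:**
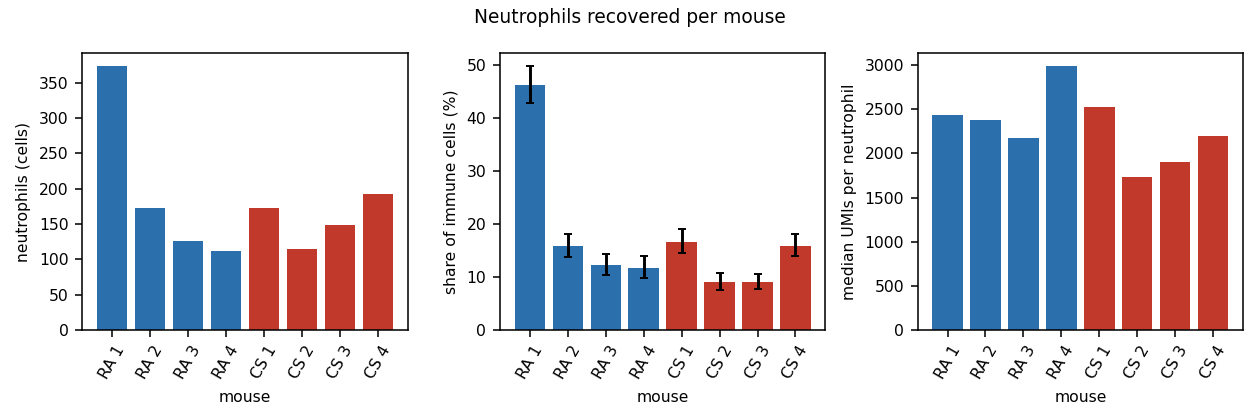
Number of neutrophils, their share of all immune cells in percent with 95% Wilson intervals, and the median number of transcripts (UMIs) per neutrophil, one bar per mouse (blue RA, red CS). RA mouse 1 had 373 neutrophils and a share of 46.3%, and the other 7 mice had shares between 8.96% and 16.6%.

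The median number of transcripts per neutrophil was 2295, against 5386 in all other cells. By mouse it was 2528, 1734, 1903 and 2192 in CS and 2433, 2382, 2175 and 2986 in RA. The groups overlapped, with means of 2089 ± 348 in CS and 2494 ± 347 in RA (SD, n = 4 each, two-sided exact permutation test, p = 0.200). In total 394 cells of the series shared a barcode with a cell of another library, 11 of them neutrophils, and 2 of those 11 shared it with another neutrophil.

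The reporter was low in both forms. Although neutrophils lie outside the Sftpc lineage, eGFP had the higher mean in both groups. tdTomato was higher only in RA mouse 2 (1.76 against 1.19), and the source of the eGFP was not tested. tdTomato had a level of 1.22 ± 0.443 in CS and 1.39 ± 0.409 in RA (n = 4 each, exact permutation p = 0.600), and eGFP of 2.22 ± 0.823 in CS and 1.51 ± 0.455 in RA (exact permutation p = 0.200). Sex-linked transcripts went against the labelled sex of all 4 CS mice: CS mice 1 and 2, labelled male, had Xist at 0.723 and 1.17 with Ddx3y at 0, and CS mice 3 and 4, labelled female, had Ddx3y at 1.48 and 0.995 with Xist at 0. Each group still held mice of both sexes in equal number, and the RA mice matched their labels.

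The comparison of CS with RA neutrophils asked which transcripts differ after long exposure. In these cells 2756 genes were tested, those found in at least 10% of the neutrophils of either group, with limma on log2(mean per 10000 + 1). At an adjusted p under 0.05 limma called 0 genes (0%). At an unadjusted p under 0.05 there were 368 genes (13.4%), of which 246 (8.93%) were higher in CS and 122 (4.43%) lower. After scaling each mouse to the median of the tested genes these became 186 higher and 165 lower, so that the excess of higher genes depended on the scaling. The median log2 difference of all tested genes was 0.02.

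Lowest in adjusted p were 4 genes at 0.0615, just above the threshold. Cd14, the co-receptor with which Toll-like receptor 4 senses lipopolysaccharide, had levels of 55.4, 77.7, 61.4 and 54.7 in the CS mice and of 111, 104, 126 and 109 in the RA mice. Every CS mouse lay below every RA mouse, as in 71 of all tested genes (2.58%). The means were 62.3 ± 10.7 in CS and 112 ± 9.70 in RA, a log2 difference of -0.85 ± 0.14 (SE, limma adjusted p = 0.0615). The test of Cd14 depended on the setting, its adjusted p being 0.0276 when only genes in at least 25% of cells were tested, where limma called 4 genes, and between 0.0188 (without CS mouse 2) and 0.233 (without RA mouse 2) when 1 mouse was left out.

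The other 3 were higher in CS. Esyt2, a tether between the endoplasmic reticulum and the plasma membrane, was at 3.16, 3.24, 3.80 and 2.47 in CS against 1.19, 1.40, 0.639 and 1.81 in RA (log2 difference 0.90 ± 0.16). Flna, the actin crosslinker filamin A, was at 2.86, 1.64, 2.26 and 2.64 against 1.02, 0.994, 1.03 and 1.11 (0.70 ± 0.13). Tcf20, a transcriptional coregulator, was at 1.90, 1.82, 2.38 and 2.43 against 1.14, 0.660, 0.940 and 0.955 (0.70 ± 0.12). With a pseudocount of 0.1 in place of 1 the log2 differences of Flna and Tcf20 were 1.08 and 1.13. In all 3 genes every CS mouse lay above every RA mouse, as in 143 of all tested genes (5.19%).

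The remaining genes with the smallest p among those with a mean level of 1 or more in at least 1 group had larger adjusted p values, from 0.111 to 0.206 by limma. Those lower in CS were Ier5, an immediate early gene (3.57 ± 0.508 in CS, 6.28 ± 0.690 in RA), Opa3, a mitochondrial membrane protein (1.07 ± 0.323 and 2.35 ± 0.477), Rab20, a small GTPase of maturing phagosomes (2.57 ± 0.573 and 4.90 ± 1.21), Nfkbia, Tnf, Cxcl3 and the unnamed transcript Gm17056 (0.756 ± 0.270 and 2.15 ± 1.10). Those higher included Cnnm2, a magnesium transporter (2.96 ± 0.152 and 1.67 ± 0.370), Gm14039 (1.45 ± 0.219 and 0.602 ± 0.355), S100a6 and Hbb-bs. Hbb-bs, a haemoglobin chain made by erythroid cells, was at 22.5, 18.9, 6.00 and 1.001 in CS and at most 1.12 in RA, and it is one of the 5 erythrocyte markers whose sum is given above. The part of erythroid RNA in its difference was not tested.

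Genes higher in CS at an unadjusted p under 0.05 were long. The span from first to last exon had a median of 70.7 kb in the 234 of 246 genes with a RefSeq span, against 27.5 kb over all tested genes and 16.9 kb in the genes lower in CS. The authors counted unspliced with spliced transcripts, and the part of this in the differences was not tested. Malat1, a nuclear RNA, was at 189, 180, 183 and 150 in CS and at 124, 151, 158 and 168 in RA. Mitochondrial transcripts summed to 63.1, 64.1, 48.5 and 49.2 in CS and to 55.8, 48.0, 36.8 and 38.4 in RA. The groups overlapped in both, the CS mouse of a sequencing lane lying above its RA mouse in 3 of 4 lanes for Malat1 and in 4 of 4 for the mitochondrial sum, and the part of either in the differences was not tested.

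Cytokine and chemokine ligands were more often lower in CS than higher. Of 18 measured, 15 passed the filter, and at an unadjusted p under 0.05, where 4.43% of all tested genes were lower and 8.93% higher, 6 were lower and 1 higher. The median log2 difference of the 15 was -0.28, but it rested in large part on CS mouse 1, without which it was -0.06. The list was chosen with earlier results of these data known, and 6 of 15 were also lower without CS mouse 1 and without RA mouse 1 (median -0.35), with 0 higher in either case. The 6 include Cxcl3, which was low in CS and may have passed the filter through the RA mice alone. Its share of cells in each group was not compared, so its place among the 6 is no support for a difference of the list. None of these genes passed the adjusted threshold.

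Tnf, the tumour necrosis factor, was at 2.26, 4.50, 5.98 and 4.04 in CS and at 9.78, 7.99, 8.85 and 5.70 in RA (log2 difference -0.84 ± 0.21, limma adjusted p = 0.191). Cxcl2, a ligand of Cxcr2 and the most abundant chemokine of these cells, was at 67.9, 90.9, 118 and 112 in CS against 143, 198, 118 and 161 in RA (-0.67 ± 0.19, limma adjusted p = 0.206). Ccl3, an attractant of monocytes and other leukocytes, was at 1.49, 5.44, 10.5 and 10.9 in CS against 16.2, 12.1, 12.4 and 11.5 in RA (-1.02 ± 0.37, limma adjusted p = 0.281). For Ccl3 the groups did not overlap, though CS mice 3 and 4 came close to the RA range, and without CS mouse 1, the lowest, the log2 difference was -0.54. For Tnf and Cxcl2 they overlapped in a single pair of mice each.

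At lower levels, Cxcl3, another Cxcr2 ligand, had a mean of 0.240 ± 0.166 in CS and 1.03 ± 0.550 in RA. The groups overlapped, with RA mouse 4 at 0.261 inside the CS range of 0.0839 to 0.458. Il1a, interleukin 1 alpha, had 0.866 ± 0.480 and 2.16 ± 0.852, and Csf1, the macrophage growth factor, had 0.881 ± 0.470 and 2.11 ± 0.982. The member higher in CS was Osm, oncostatin M (2.98 ± 0.565 and 2.05 ± 0.553). Il1b, the most abundant cytokine after Cxcl2, had overlapping groups. It stood at 85.6, 91.5, 138 and 108 in CS and at 73.3, 122, 107 and 150 in RA (log2 difference -0.07 ± 0.20). Ccl6 and Ccl4, next in level, had log2 differences of 0.00 and 0.12.

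Of the NF-kB feedback and stress genes all 24 passed the filter, 5 being lower and 2 higher at an unadjusted p under 0.05, where the shares of all tested genes were 4.43% and 8.93%. The median log2 difference of the list was -0.06 and changed sign with 1 mouse, being 0.03 without CS mouse 1 (4 lower, 1 higher) and -0.17 without RA mouse 1 (4 lower, 0 higher). Nfkbia, the inhibitor of NF-kB that NF-kB itself induces, was at 22.9, 34.0, 52.6 and 45.9 in CS and at 70.3, 62.6, 65.4 and 69.3 in RA (-0.83 ± 0.21, limma adjusted p = 0.180). Every CS mouse lay below the narrow RA range. Icam1, an adhesion ligand, was at 2.94, 3.79, 5.68 and 5.72 against 8.40, 6.11, 7.14 and 7.82 (-0.63 ± 0.18), again without overlap. Ier5, Jun (1.15 ± 0.158 in CS, 2.81 ± 1.62 in RA) and Sod2, the mitochondrial superoxide dismutase (2.81 ± 1.43 and 4.20 ± 0.991), were the other 3 lower members. Sod2 overlapped, with CS mouse 2 at 4.85, and was not past that level without CS mouse 1 or without RA mouse 1. The RA mean of Jun was raised by RA mouse 1, at 5.10 against 2.67, 2.12 and 1.34 in RA mice 2 to 4. Fos (21.1 ± 5.84 and 13.9 ± 6.10) and its relative Fosl2 (8.98 ± 1.21 and 6.51 ± 1.94) were the higher ones, so that members of the list differed in both directions.

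**Figure D2:**
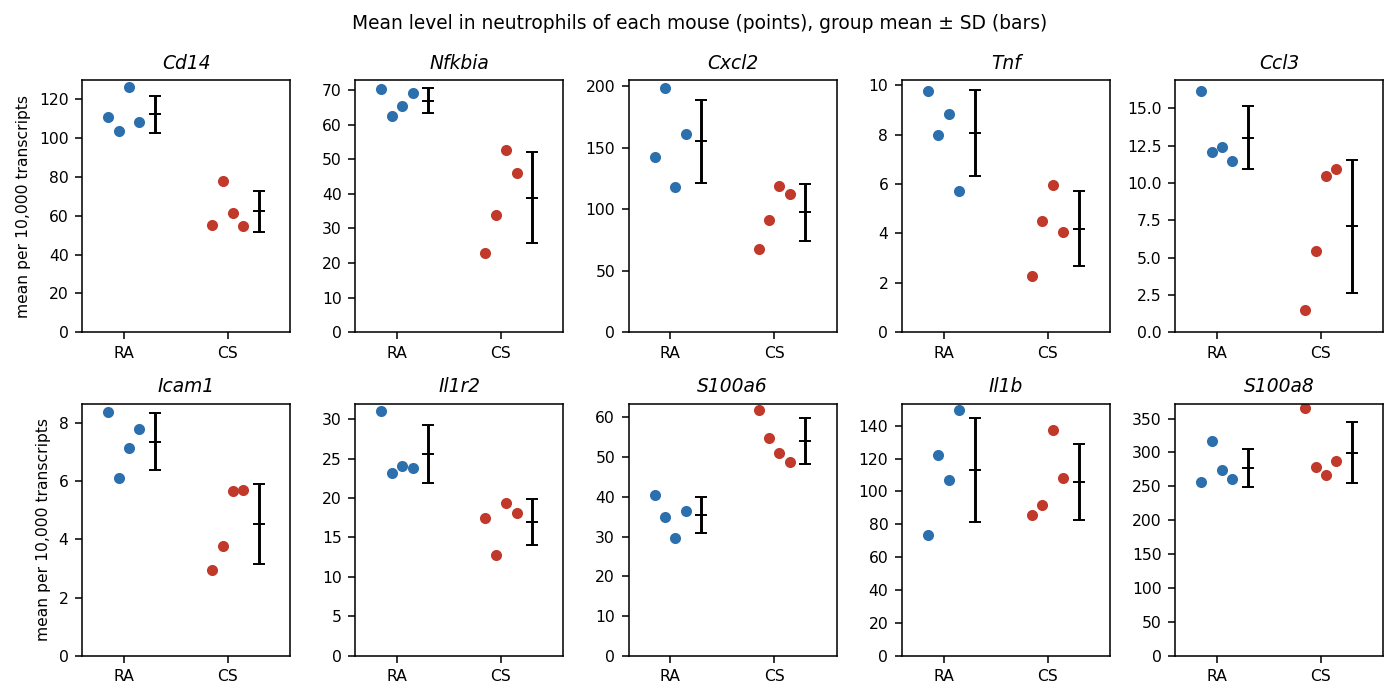
Mean level per 10000 transcripts in the neutrophils of each mouse (points; blue RA, red CS) with the group mean and SD (bars) for 10 genes. Cd14, Nfkbia, Ccl3, Icam1 and Il1r2 are lower in every CS mouse than in every RA mouse, S100a6 is higher in every CS mouse, and Il1b and S100a8 overlap.

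Since some, though not all, targets of NF-kB were among the genes lower in CS at an unadjusted p under 0.05, promoters were read for a kappaB-type motif. The letters searched were GGGNNTTTCC on either strand, with no other motif, in the 250 bases before the RefSeq start site (GRCm38.p6). Of 32536 promoter windows, 454 (1.40%) held the motif. Of the genes lower in CS at that level 5 held it, and 4 of these are shown because they encode chemokines, a growth factor and the inhibitor of NF-kB described above, printed on the strand of the gene, 5′ to 3′, with each match in capitals. They are Nfkbia (chr12:55492648-55492897, minus strand), Cxcl2 (chr5:90903649-90903898, plus strand), Cxcl3 (chr5:90785851-90786100, plus strand) and Csf1 (chr3:107760470-107760719, minus strand).
Nfkbia: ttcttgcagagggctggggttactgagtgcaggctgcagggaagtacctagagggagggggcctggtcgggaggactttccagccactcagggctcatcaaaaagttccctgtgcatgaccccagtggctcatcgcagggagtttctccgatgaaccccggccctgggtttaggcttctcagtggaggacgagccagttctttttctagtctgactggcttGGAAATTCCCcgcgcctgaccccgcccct
Cxcl2: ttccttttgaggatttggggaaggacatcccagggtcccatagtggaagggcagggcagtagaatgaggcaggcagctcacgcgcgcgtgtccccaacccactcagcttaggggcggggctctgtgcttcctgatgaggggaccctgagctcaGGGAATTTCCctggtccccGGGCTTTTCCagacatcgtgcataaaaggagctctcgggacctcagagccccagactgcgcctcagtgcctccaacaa
Cxcl3: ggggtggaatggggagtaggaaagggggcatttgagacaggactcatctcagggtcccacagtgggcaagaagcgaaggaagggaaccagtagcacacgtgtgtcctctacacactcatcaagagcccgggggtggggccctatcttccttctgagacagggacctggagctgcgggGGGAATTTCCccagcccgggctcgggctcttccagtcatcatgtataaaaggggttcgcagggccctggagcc
Csf1: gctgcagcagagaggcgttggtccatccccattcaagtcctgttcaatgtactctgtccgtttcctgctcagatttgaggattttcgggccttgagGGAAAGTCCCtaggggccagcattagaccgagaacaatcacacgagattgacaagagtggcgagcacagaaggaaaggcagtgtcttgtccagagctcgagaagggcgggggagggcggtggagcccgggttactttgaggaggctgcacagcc

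The matches began 29 bases before the start site in Nfkbia, 97 and 78 bases before it in Cxcl2, 73 in Cxcl3 and 154 in Csf1. The windows of Tnf, Ccl3, Icam1 and Il1a, other NF-kB targets that were lower in CS, did not contain these letters. Those of Ier5, Rab20, Opa3, Sod2, Birc3, Ccrl2, Clec4e and Jun, also read and lower in CS, did not contain them either. Of the genes tested in neutrophils with a window, 49 of 2150 (2.28%) held the motif, against 5 of 99 (5.05%) among those lower in CS and 4 of 186 (2.15%) among those higher in CS at an unadjusted p under 0.05. These counts are small, and a match describes sequence only. The motif was chosen because NF-kB targets had been seen among these same lower genes. A higher share among them was therefore built in and is no support for a part of NF-kB.

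Of 13 tested chemoattractant and growth factor receptors 2 were lower and 0 higher at an unadjusted p under 0.05 (4.43% and 8.93% of all tested genes), C5ar1, the receptor for complement C5a (8.13 ± 0.386 in CS, 11.5 ± 1.77 in RA, no overlap), and Ccrl2, a non-signalling chemerin receptor (19.7 ± 9.55 and 32.0 ± 7.12, overlapping, with a log2 difference of -0.78 that was -0.47 without CS mouse 1). Of 15 tested pattern recognition genes 2 were lower and 0 higher, the lower ones being Cd14 and Clec4e, the C-type lectin Mincle (15.9 ± 3.94 and 21.5 ± 3.46). Il1r2, the decoy receptor for interleukin 1, was at 17.4, 12.8, 19.4 and 18.1 in CS against 31.1, 23.2, 24.1 and 23.8 in RA (-0.57 ± 0.16, limma adjusted p = 0.206) with no overlap. Csf3r was slightly higher in every CS mouse (19.0 ± 1.86 and 16.2 ± 1.16), as were 5.19% of all tested genes. It was not past an unadjusted p of 0.05, and its lowest CS level, 17.37, barely exceeded its highest RA level, 17.33. Cxcr2 was level (5.82 ± 1.19 and 5.65 ± 0.445).

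At an unadjusted p under 0.05, past which 8.93% of all tested genes were higher and 4.43% lower, 1 of 14 tested adhesion genes was higher, Itgal, the alpha chain of LFA-1 (5.48 ± 0.526 in CS, 3.78 ± 0.598 in RA, no overlap), and 2 were lower, Icam1 and Itgb1 (0.464 ± 0.188 and 0.903 ± 0.157). In the calgranulin and cystatin A family, 7 genes were tested and S100a6, a calcium-binding protein of the same family as the markers, was the only one past an unadjusted p of 0.05. It was at 61.9, 54.7, 50.9 and 48.7 in CS and at 40.4, 35, 29.7 and 36.4 in RA (0.60 ± 0.14, limma adjusted p = 0.161). S100a8 (log2 difference 0.11 ± 0.12) and S100a9 (-0.03 ± 0.12) overlapped. The 7 genes of the NADPH oxidase, which makes superoxide, all passed the filter and 0 were past that level, Ncf1, a cytosolic subunit, among them (3.03 ± 1.10 in CS, 3.93 ± 0.616 in RA).

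At the same unadjusted level, past which 4.43% of all tested genes were lower and 8.93% higher, 4 of 15 tested glycolysis and HIF target genes were lower, Eno1 (1.37 ± 0.208 in CS, 2.20 ± 0.290 in RA), Pgam1, Pkm and Ldha, and 1 was higher, the glucose transporter gene Slc2a3 (5.62 ± 0.614 and 4.01 ± 0.712). Without RA mouse 1 the lower ones numbered 2. With all mice, 1 of 6 tested iron genes was lower at that level and 1 higher. The lower one, Fth1, the ferritin heavy chain, was at 195, 202, 192 and 209 in CS and at 295, 267, 277 and 221 in RA (-0.40 ± 0.11, limma adjusted p = 0.206). The higher one, Slc40a1, was at 1.79, 1.37, 0.880 and 1.13 in CS and at 0.834, 0.967, 0.727 and 0.805 in RA. Of 10 tested heat shock chaperone genes 1 was lower, Hspa5, an endoplasmic reticulum chaperone, without overlap (4.11 ± 0.773 and 5.95 ± 0.742). Counts of 1 are no result about these 2 lists.

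Counts of 0 or 1 follow for members past an unadjusted p of 0.05, against 8.93% higher and 4.43% lower among all tested genes, so that their counts are no result about the lists. Of 10 tested interferon-stimulated genes 1 was higher, Ifitm1, and 1 was lower, Isg20. Of 11 tested survival and cell death genes 1 was lower, Birc3, an inhibitor of apoptosis (5.18 ± 1.42 and 6.98 ± 0.793). The aged-neutrophil list had 6 tested members with Icam1 alone past that level, and Cxcr4, the receptor that retains neutrophils in the bone marrow (4.64 ± 1.17 and 3.93 ± 0.642), was not. Of 8 tested xenobiotic and antioxidant genes, which smoke can induce in other cells, 0 were past it. These included Slc7a11 (58.3 ± 1.49 and 48.7 ± 12.7) and Gsr, glutathione reductase (20.4 ± 0.542 and 17.6 ± 1.68).

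**Figure D3:**
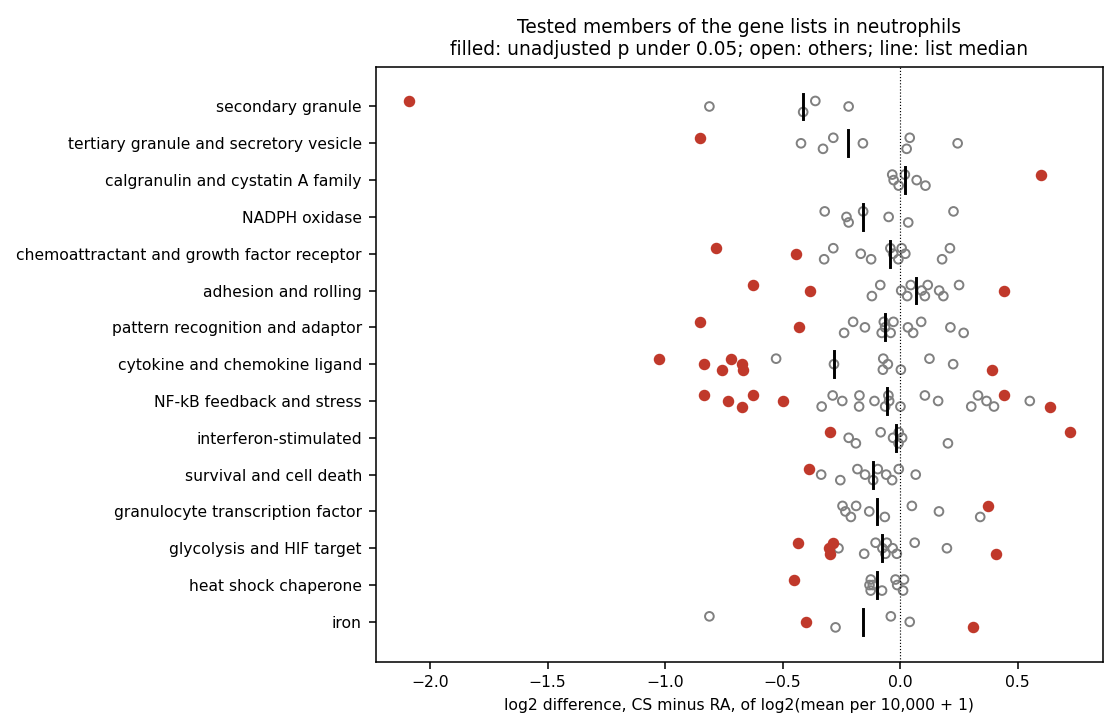
Log2 difference between CS and RA (x axis, CS minus RA, of the mean per 10000 plus 1) of every tested member of 15 gene lists (rows). Filled points have an unadjusted p under 0.05, open points do not, and black lines are list medians. The cytokine and chemokine ligands have a median of -0.28 (-0.06 without CS mouse 1) with 6 filled points to the left. These include Cxcl3, which may have passed the filter through the RA mice alone. The secondary granule genes have a median of -0.41 (-0.26 without RA mouse 1) with 1 filled point. That point is Chil3, which passed the filter through RA mouse 1 and is no support for a difference of the list.

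Classical monocytes of the same mice served as the nearest comparison. The CS effect in neutrophils minus that in monocytes was tested within mice, and limma called 0 of 2756 genes (0%), with 172 (6.24%) at an unadjusted p under 0.05. For Cd14 the log2 difference between CS and RA was -0.81 ± 0.19 in monocytes, and the difference of the 2 effects was -0.04 ± 0.24. For Nfkbia it was -1.12 ± 0.23 in monocytes, with a difference of effects of 0.29 ± 0.23, and for Tnf -1.13 ± 0.21, with a difference of 0.29 ± 0.21. For Il1b the effects lay further apart, at -1.20 ± 0.22 in monocytes against -0.07 in neutrophils (difference of effects 1.12 ± 0.36, limma adjusted p = 0.693). Monocyte levels of Cd14 were 8.77, 12.5, 9.35 and 12.2 in CS and 27.1, 21.1, 14.2 and 17.1 in RA, and in alveolar macrophages Nfkbia lay between 5.74 and 7.87 in CS and between 13.5 and 22.3 in RA. In monocytes alone limma also called 0 of 2756 genes, with 367 at an unadjusted p under 0.05 and a smallest adjusted p of 0.208, so that none of these monocyte differences passed the threshold. These 2756 genes were those that passed the filter in neutrophils. Genes of monocytes that did not pass it in neutrophils were not tested.

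Splitting the neutrophils into 2 groups by k-means on 10 principal components gave groups that were poorly separated (silhouette 0.170). No other number of groups was tried. The larger group, 865 cells, was led by Ccrl2 (38.0 against 6.89 in the other group), Nfkbia (75.9 and 21.6), Ccl3 (17.3 and 1.01), Gadd45b, Marcksl1, Zeb2, Icam1, Nfkbiz, Cxcl2 and Clec4e, several of which NF-kB induces. The smaller, 546 cells, had among its leading genes Fos (21.4 against 12.4), Sh2d3c, Braf (17.7 and 8.40), Sik3, Rsrp1, Cmip, Cd300lb, Vps37b and Retnlg (109 and 74.5). Median depth was alike at 2313 and 2274 transcripts.

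The Fos-led group held 81.4%, 50.9%, 48.0% and 36.8% of the neutrophils of CS mice 1 to 4 and 23.1%, 35.8%, 23.0% and 25.9% of those of RA mice 1 to 4. Every CS mouse lay above every RA mouse, with CS mouse 4 barely so. The groups were formed from the same cells, and genes that led them, such as Nfkbia, Ccl3 and Fos, were among those at an unadjusted p under 0.05 between CS and RA, so the shares are not independent of that comparison and were not tested. CS mouse 1 held the largest Fos-led share and the largest erythrocyte marker sum, 35.6, and the part of either in the other was not tested.

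**Figure D4:**
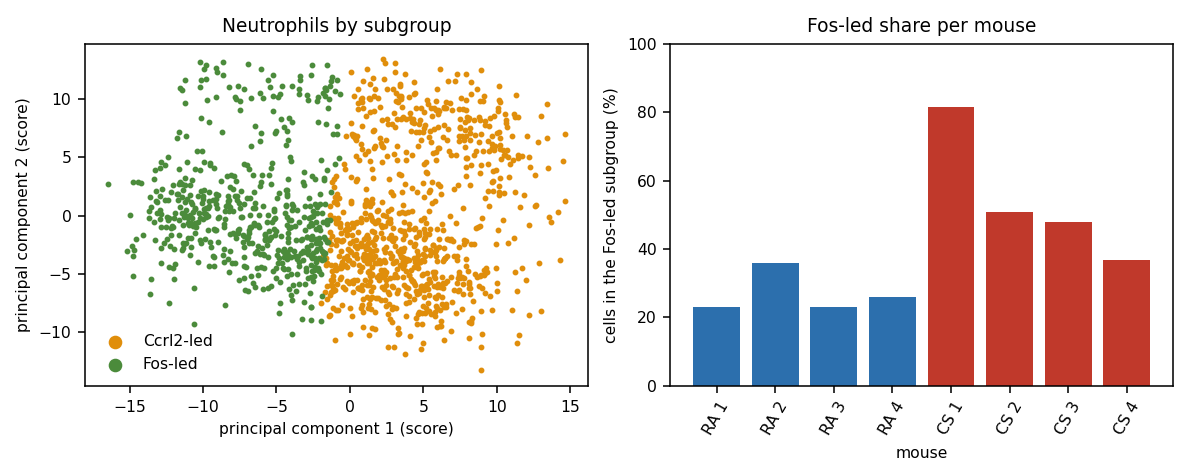
Left, scores of the 1411 neutrophils on the first and second principal components, coloured by k-means group. Right, percent of the neutrophils of each mouse in the Fos-led group (blue RA, red CS), from 23.0% to 35.8% in RA and from 36.8% to 81.4% in CS.

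The neutrophils of RA mouse 1 stood apart from those of the other mice. Chil3, a chitinase-like protein of neutrophil secondary granules that is also made by monocytes and alveolar macrophages, was at 89.0 in RA mouse 1 and at 1.81 or less in the other 7 mice. It was found in 358 of its 373 neutrophils (96.0%), and in 0% to 5.78% of those of the others, while 1.84% of B cells, which do not make it and were sequenced deeper (median 4055 transcripts), had any value above 0, a looser criterion. Thinned to 1000 transcripts per cell, the share in RA mouse 1 was 90.6%, with no cell too shallow to enter. B cells and T cells of RA mouse 1 had Chil3 at 0.227 and 0.382. In B cells the highest level was that of CS mouse 4, at 0.922.

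The same mouse had the highest level of several other granule genes, though not of Mmp9, at 9.56 against 8.35 to 13.5 in the rest. Lcn2, which withholds iron from bacteria, was at 55.5 in RA mouse 1 and between 7.495 and 15.7 in the rest. Mmp8, neutrophil collagenase, was at 14.8 against 1.72 to 4.00, and Retnlg at 151 against 36.6 to 101. Hp, haptoglobin (26.6 against 10.3 to 22.1) and Lyz2, lysozyme (21.7 against 9.72 to 18.0) were highest there by less. Chil3 was also higher in its classical monocytes, 237 against 5.74 to 30.5, and in its alveolar macrophages, 273 against 96.6 to 136.

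Between CS and RA, 5 of 10 measured secondary granule genes passed the filter (Chil3, Lcn2, Hp, Lyz2 and Cybb), all with a lower mean in CS and with a median log2 difference of -0.41. Only Chil3 was past an unadjusted p of 0.05 (limma adjusted p = 0.357), where 4.43% of all tested genes were lower. It was found in 96.0% of the neutrophils of RA mouse 1 and in 5.78% or less of any other mouse. So it passed the 10% filter through that mouse, and its p is no support for a difference of the list. With sequencing lane as a block Chil3, Lcn2 and Hp were past that level. Without RA mouse 1, with the tested genes kept as they were, the median was -0.26. Chil3, then at 1.81 or less in every mouse, was the only member past that level. Of 8 tested tertiary granule and secretory vesicle genes, with a median of -0.22, 5 had a log2 difference below 0 and 3 above. Cd14 alone was past an unadjusted p of 0.05, where 4.43% of all tested genes were lower and 8.93% higher. The same gene was counted among the pattern recognition genes above. A list of tumour-associated or lung-resident Siglecf neutrophil genes had 5 tested members, all with a log2 difference below 0 and with a median of -0.29. Of these Ctsb, Tnf and Icam1 were past the same level, and Tnf and Icam1 also belong to lists described above.

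Other genes were lowest in RA mouse 1. Pak1, a kinase of the actin cytoskeleton, was at 0.944 against 3.24 to 6.81. Ifitm1, an interferon-induced membrane protein, was at 4.01 against 13.6 to 25.6, Ptgs2, cyclooxygenase 2, at 2.72 against 6.71 to 16.4, and Fos at 6.02 against 13.4 to 27.7. Of 1432 genes with a mean level of 1 or more, 11 were at least 2-fold above and 16 at least 2-fold below all other mice in RA mouse 1, while in the other mice these numbers ran from 0 to 2 and from 0 to 14, the 14 being in CS mouse 1. On the second principal component of the cells, 292 of its 373 neutrophils (78.3%) scored above 5, against 0.581% to 4.05% in the other mice.

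**Figure D5:**
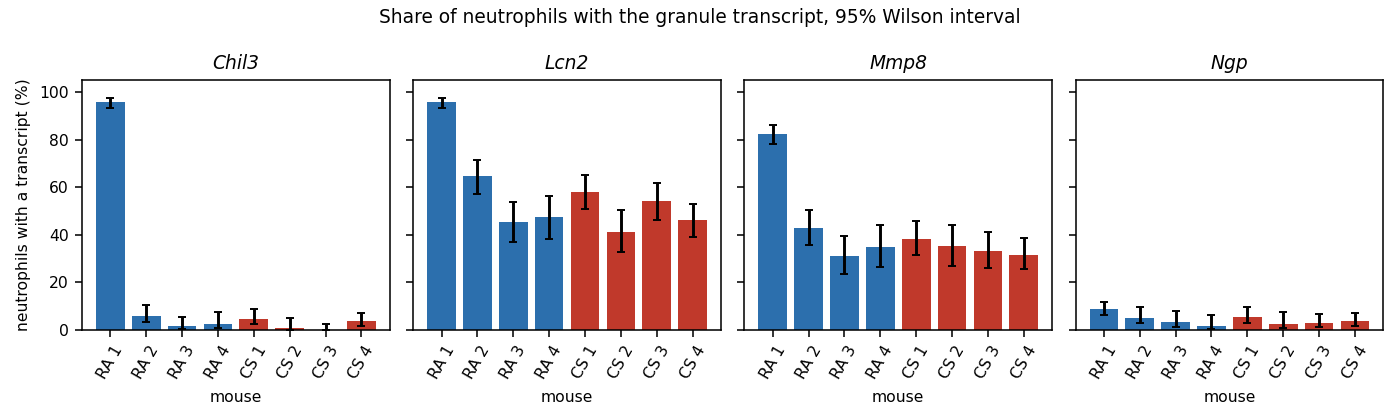
Percent of neutrophils of each mouse with a transcript of Chil3, Lcn2, Mmp8 or Ngp, with 95% Wilson intervals (blue RA, red CS). Chil3 was found in 96.0% of the neutrophils of RA mouse 1 and in 5.78% or less of the others, while Ngp was found in 8.58% or less of any mouse.

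Primary granule genes, and Ngp, Camp and Ltf among the secondary granule genes, were rare in all mice. Lcn2, also of the secondary granules, was not, being found in 41.2% or more of the neutrophils of every mouse. Of the primary granule genes 5 were measured and 0 passed the filter, with Elane, neutrophil elastase, at 0 in every mouse and Mpo, myeloperoxidase, at 0.0928 or less. Ngp, Camp and Ltf, which mark secondary granule formation, were found in few cells. In RA mouse 1 Ngp was found in 32 of 373 cells (8.58%, against 1.79% to 5.23% in the other mice), Ltf in 21 (5.63%, against 0.877% to 4.15%) and Camp in 11 (2.95%, against 0% to 3.47%). The mean level of Ngp in RA mouse 1, 0.859, was within the range of the others, 0.162 to 11.1.

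Most of the Ngp signal came from very few cells. At a level of 100 or more there were 6 neutrophils in all, 3 in RA mouse 2 and 1 each in RA mice 3 and 4 and CS mouse 2, and they carried 93.3% to 98.9% of the Ngp of their mouse. All 6 also held Camp and Ltf. Their median depth was 8446 transcripts against 2295 over all neutrophils, and their median level of Cxcl2 was 0.562 and of Il1b 1.80, against 95.4 and 80.6 in the other neutrophils. Their median level of Chil3 was 55.6, though none of the 6 came from RA mouse 1. These cells were picked after their values were seen, and no test was made.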

How the data were processed

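Single-cell RNA libraries (10x Genomics 3' kit, version 3 chemistry) of right-lung cells from 8 mice, 4 CS and 4 RA, were used as deposited. The authors aligned reads with STAR 2.7.3a (STARsolo) to GRCm38.p6 with reporter sequences added, kept spliced and unspliced transcripts, filtered cells, corrected for ambient RNA with SoupX and named clusters by markers. The deposited matrix holds expected counts, that is UMI counts after this correction, of which 1.28% were whole (within 1e-06), so no count model was used. The cell table holds the mitochondrial percent, as the authors computed it, and the labels of cell type. Cells that the authors labelled multiplets were left out, and the method that found them is not given in the sources used here.

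Each cell was scaled to 10000 and averaged per mouse. The members and gene lists were chosen with earlier results of these data known. Genes in at least 10% of neutrophils of either group were tested with limma 3.58.1 (R 4.3.3, eBayes with trend) on log2(mean + 1), Benjamini-Hochberg adjusted, with mice of at least 20 neutrophils, which all 8 were. Single values were compared by exact permutation over 70 assignments. Named genes were the fixed markers, the 15 most specific genes, the 4 most abundant of each list, the 8 higher and 8 lower genes of smallest p at a level of 1 or more in either group, and the 10 leading genes of each k-means group. Others (Il1a, Csf1, Osm, Jun, Sod2, Fosl2, Itgb1, Isg20, Eno1, Pgam1, Ldha, Pak1, Ptgs2, Slc40a1 and the Ngp, Camp and Ltf cells) were named after their values were seen. A few genes that meet this rule are not reported here. Values for shares of neutrophils with Chil3 or another granule transcript were rounded first, the filter and the shares of Ly6g and of B cells counted any value above 0, and thinning drew 1000 transcripts. The limma step was tested on simulated data with 2756 genes, with normal noise drawn independently for each gene. In 1 run, 100 genes were changed by 1 and 100 by 2 on the log2 scale. It found 94% and 99% of them, with 7 false calls in all. So many changed genes ease the adjusted threshold, and in the real data Ccl3, with a log2 difference of -1.02, was not called. These rates therefore do not tell how many changes of that size were missed here. Each library came from a separate mouse, so p-values measure the spread between mice. The lane of sequencing held 1 CS and 1 RA mouse each and entered as a block in an alternative. Promoter sequences were from RefSeq (GRCm38.p6). With 112 to 373 neutrophils per mouse and a median near 2295 transcripts, genes under about 1 per 10000 were seen in few cells.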

Additional observations from a re-analysis of the deposited data

Results flagged for a closer look

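Of 222 sets of 4 mice, CS and RA apart, 20 had 1 mouse far from the other 3, by Dixon's test at its 95% critical value. The sets held levels of most of the genes named above and other values per mouse apart from cell numbers. Chance alone gives about 1 in 20 such sets, and many of these sets share cells or genes. Some, those of Chil3 and of the second principal component among them, were chosen with the values of RA mouse 1 known. The count of 20 is therefore not to be read against that rate. In RA, mouse 1 was the far one in all 11 cases. Of its neutrophils 78.3% scored above 5 on the second principal component, against 4.05% in the nearest mouse. Its levels were 89.0 against 1.81 for Chil3, which was found in 96.0% of its neutrophils against 5.78% and made up most of its classical monocyte marker sum (90.5 against 2.39). They were 55.5 against 15.7 for Lcn2, 31.1 against 24.1 for Il1r2, 3.58 against 1.72 for Csf1 and 1.36 against 0.853 for Cybb, a subunit of the NADPH oxidase. Chil3 was also far in its classical monocytes (237 against 30.5), its alveolar macrophages (273 against 113) and, at a low level, its B cells (0.227 against 0.0443). Without this mouse, Csf1 and Il1r2 still had a lower mean in CS than in RA.

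In CS, mouse 2 was far from the others in Camp (2.31 against 0.177) and Ngp (2.05 against 0.477), both mostly from 1 cell, in Eno1 (1.05 against 1.46) and in Pgam1 (0.715 against 0.522). CS mouse 1 was lowest in Rab20, at 1.71 against 2.82, and in Clec4e, at 10.1 against 17.1. CS mouse 4 was highest in Birc3, at 7.31 against 4.60, in the share of neutrophils with Ltf, at 4.15% against 1.35%, and in the Chil3 level of B cells, at 0.922 against 0.105.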

How the results depend on the processing

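The count of genes called between CS and RA, 0, became 4 when only genes in at least 25% of cells were tested (Cd14, Esyt2, Flna and Tcf20), as fewer genes were tested, and 2 with weights by the number of neutrophils (Cd14 and Flna). Leaving out 1 mouse at a time gave 0 to 5 calls, with 2 without CS mouse 2, 1 without CS mouse 4 (Hbb-bs) and 5 without RA mouse 4 (Cd14, Cxcl3, Esyt2, Gm14039 and Slc31a2); the cause was not tested. It was 0 under the other scalings, pseudocount, summed counts and lane as a block, under which 338 genes had an unadjusted p under 0.05. Lower minimum numbers of neutrophils per mouse kept the same mice as the main setting, so they repeated its result and are no check. Mice of 1 lane did not deviate together (correlations from -0.0814 to 0.0679). Without a filter on genes, 978 of 21132 genes had an unadjusted p under 0.05 and 0 were called. Calls for a difference from classical monocytes were 0 throughout, with 149 to 210 genes at an unadjusted p under 0.05 when 1 mouse was left out. With a pseudocount of 0.1 the log2 differences of low genes were larger, at -1.65 for Cxcl3, -1.09 for Opa3, -1.31 for Gm17056, 1.28 for Gm14039 and 4.27 for Hbb-bs. The 372 recomputed log2 differences of 31 genes include those under the lower minimum numbers of neutrophils, which repeat the main values. Many of the 31 genes were chosen for their small p in these data, which makes a change of sign unlikely. The count of sign changes is therefore no measure of stability. In all, 6 changed sign, all of genes near 0. These were S100a9, from -0.116 to 0.050 with 1 mouse left out (above 0 without CS mouse 3, CS mouse 4, RA mouse 1 or RA mouse 2), and Il1b, from -0.264 to 0.076 (above 0 without CS mouse 1 or RA mouse 4). The difference in share ran from -12.2 to -0.652 percentage points and that in median transcripts from -551 to -241 when 1 mouse was left out, on the same side of the threshold.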
